A study of Homo sapiens with 6 samples.

Results

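The 10 genes described here encode heme oxygenases, biliverdin reductases, ferritin chains and proteins that carry iron or sense it, and they are HMOX1, HMOX2, BLVRA, BLVRB, FTH1, FTL, TFRC, SLC40A1, ACO1 and IREB2. They were taken as the rows whose gene symbol equals one of these names, and all 10 were found among the 59653 rows of the count table. The RNA came from SK-OV3, an established line of human ovarian cancer labelled wild type, 48 h after transfection with 1 of 2 pools of siRNA. A pool against the lncRNA PVT1 (siPVT1, 3 libraries) was compared with a non-targeting pool (siControl, 3 libraries), to find which transcripts change when PVT1 is lowered. Lipofectamine RNAiMAX served as the transfection reagent, and only 1 cell line and 1 pool against PVT1 were sequenced, so that effects of lower PVT1 and other effects of that pool cannot be told apart.

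Heme oxygenases open the heme ring and release iron, carbon monoxide and biliverdin, which biliverdin reductases turn into bilirubin. HMOX1 is the form that cells induce under oxidative stress and heme load, with NRF2 as an activator and BACH1 as a repressor that heme itself inactivates, whereas HMOX2 is the constitutive form. Iron is stored in ferritin, a shell of heavy (FTH1) and light (FTL) chains. It enters cells bound to transferrin by way of the transferrin receptor (TFRC) and leaves through ferroportin (SLC40A1). The iron regulatory proteins IRP1 (ACO1) and IRP2 (IREB2) bind a hairpin, the iron-responsive element, when iron is scarce. In a 5′ UTR this blocks translation, and in the 3′ UTR of TFRC it protects the mRNA from decay.

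The hairpins are shown because they join 4 of the members to the 2 IRPs. A script searched the sense strand of the UTRs of each canonical transcript in GENCODE v44 for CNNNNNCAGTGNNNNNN, with the last 5 bases able to pair with the 5 bases after the first C (G with T allowed). Capitals mark the 6-base loop and each stretch has 27 bases. A match was found in the 5′ UTR of FTH1 (chr11:61967575-61967601, minus strand), FTL (chr19:48965336-48965362, plus strand) and SLC40A1 (chr2:189580662-189580688, minus strand), all in GRCh38. The 3′ UTR of TFRC held 4 matches on the minus strand, of which the first (chr3:196050980-196051006) and the last (chr3:196050464-196050490) are printed.
FTH1: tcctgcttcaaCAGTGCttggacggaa
FTL: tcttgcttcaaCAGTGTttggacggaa
SLC40A1: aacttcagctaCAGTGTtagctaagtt
TFRC, first: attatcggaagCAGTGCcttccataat
TFRC, last: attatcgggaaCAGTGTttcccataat
The same search matched 0.099% of 19198 5′ UTRs and 0.63% of 19203 3′ UTRs of protein-coding genes. A match describes the letters and does not show binding in these cells.

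The deposited values are estimated counts, with a total of 28383171 to 35059576 per library. Normalized counts are these counts divided by the TMM-scaled library size relative to its mean, and every ± is an SD over 3 libraries. PVT1, the target of the pool, had 3298, 4090 and 3377 normalized counts in siControl, and 2350, 2111 and 2062 in siPVT1. Values given this way stand in the order of replicates 1, 2 and 3. It was lower in 3 of 3 siPVT1 libraries, at 60.6% of siControl (log2 fold change −0.72, standard error 0.097, edgeR adjusted p = 0.000342). The labels do not say whether the replicates were separate cultures, so the p-values measure the spread between these libraries. Levels come from bulk RNA, in which fewer expressing cells and less RNA per cell cannot be told apart.

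HMOX1 fell to 19.0% of its siControl level and was the single member past both thresholds (an adjusted p-value under 0.05 and a 2-fold change). The other members moved by less than 2-fold and in both directions. BLVRA, BLVRB, SLC40A1 and ACO1 rose, HMOX2 and FTL fell, and FTH1, TFRC and IREB2 did not pass the adjusted p-value. All 10 members passed the filter on low counts. Past both thresholds, 1 member was lower and 0 were higher, where 21.5% of the 19008 tested genes passed, 9.64% as lower and 11.8% as higher. By the adjusted p-value alone, 3 members were lower and 4 higher, against a background of 57.9%, made of 28.4% lower and 29.5% higher. The groups did not overlap in 4 members with siPVT1 lower (background 32.3%) and in 4 with siPVT1 higher (33.2%), together 8 of 10 against 65.6% of all tested genes. The median log2 fold change of the members was −0.11 and that of all tested genes was 0.0014.

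**Figure D1:**
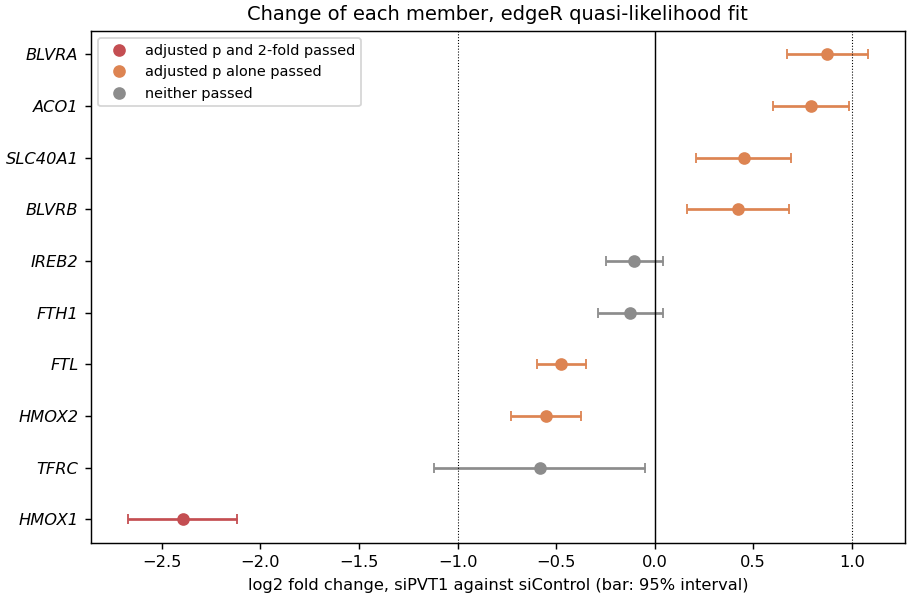
Log2 fold change of the 10 members in siPVT1 against siControl from the edgeR fit, with 95% intervals as bars and dotted lines at a 2-fold change. HMOX1 lies apart at −2.39, BLVRA and ACO1 are the highest at 0.88 and 0.79, and TFRC has the widest interval, from −1.12 to −0.05.

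HMOX1 (ENSG00000100292, chr22:35380361-35394214, plus strand) had 2262, 2214 and 2315 normalized counts in siControl. In siPVT1 it had 385, 382 and 521. Every siPVT1 library was far below every siControl library, and siPVT1 replicate 3 was the highest of its group. The log2 fold change was −2.39 (standard error 0.12, edgeR adjusted p = 2.8e-06), a 5.26-fold fall. HMOX2 (ENSG00000103415, chr16:4474690-4510347, plus strand), the constitutive heme oxygenase, had 1274, 1160 and 1326 normalized counts in siControl and 839, 824 and 902 in siPVT1. It fell in 3 of 3 libraries by a smaller amount, to 68.2% of siControl (log2 fold change −0.55, standard error 0.077, edgeR adjusted p = 0.000436).

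The genes of the next step, which reduces biliverdin to bilirubin, moved the other way. BLVRA (ENSG00000106605, chr7:43758680-43807342, plus strand), the main adult biliverdin reductase, had 533, 440 and 490 normalized counts in siControl and 933, 863 and 891 in siPVT1. The log2 fold change was 0.88 (standard error 0.089, edgeR adjusted p = 7.52e-05), so that BLVRA was 1.84-fold higher with no overlap between the groups. BLVRB (ENSG00000090013, chr19:40447765-40465764, minus strand), a flavin reductase that also acts on a biliverdin isomer, had 508, 423 and 462 normalized counts in siControl and 707, 603 and 557 in siPVT1. It was 1.34-fold higher (log2 fold change 0.42, standard error 0.11, edgeR adjusted p = 0.0122), and the closest libraries of the groups were at 508 and 557. With scaling by the total count, which moves the median of all genes from 0.0014 to −0.15, BLVRB did not pass (log2 fold change 0.27, edgeR adjusted p = 0.0534).

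**Figure D2:**
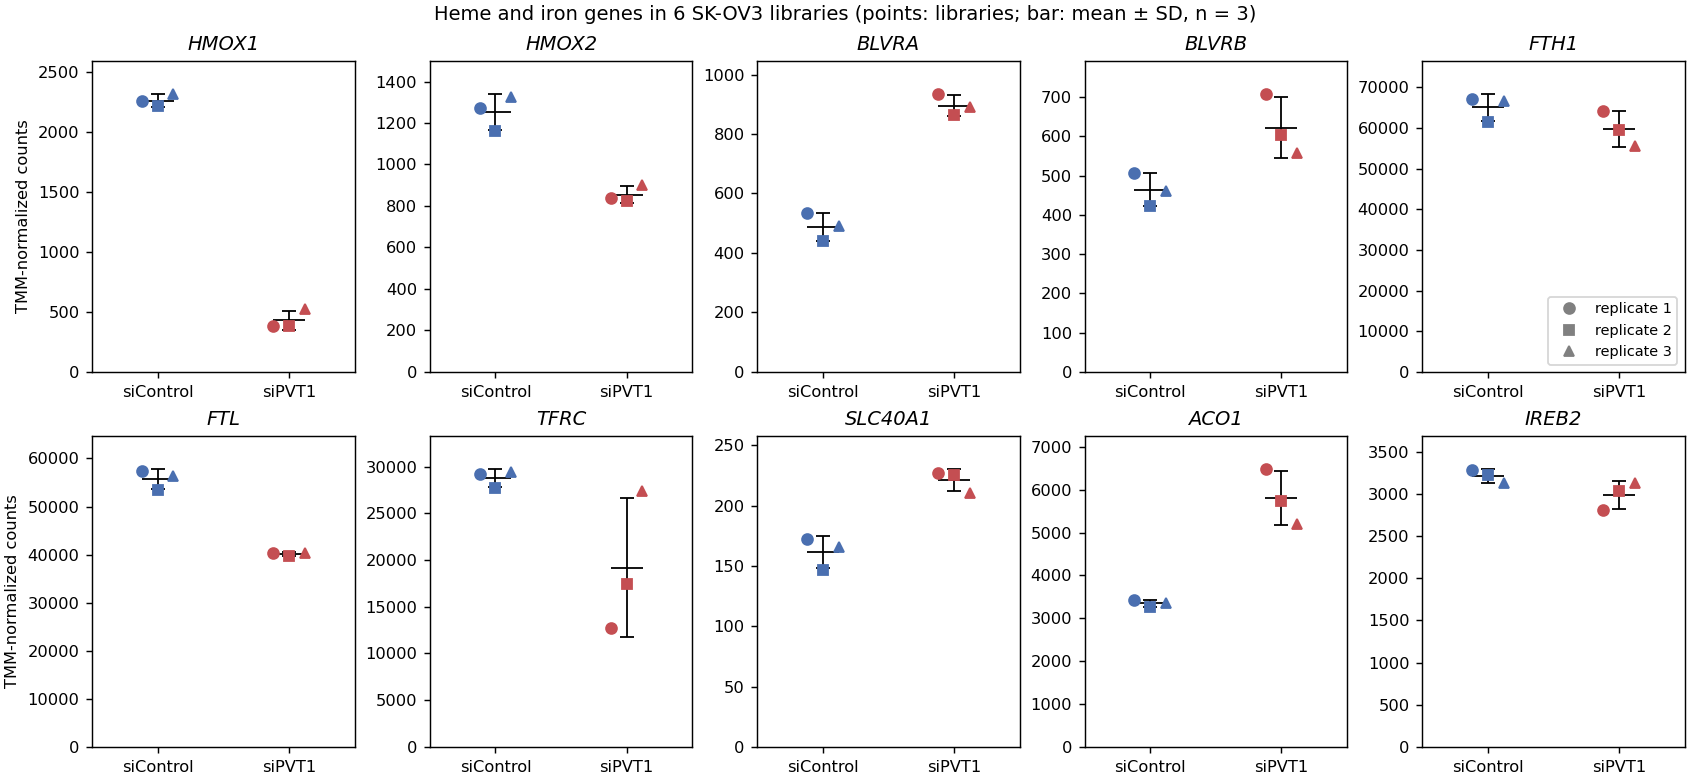
TMM-normalized counts of each member in the 3 siControl and 3 siPVT1 libraries, with a separate axis from 0 for each gene, points for libraries and bars for the mean ± SD. HMOX1 is at 382 to 521 in siPVT1 against 2214 to 2315 in siControl, and TFRC spreads from 12749 to 27337 within siPVT1.

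The ferritin mRNAs were the most abundant of the members and their chains changed unequally. FTL (ENSG00000087086, chr19:48965309-48966879, plus strand), the light chain, had 57400, 53546 and 56264 normalized counts in siControl and 40378, 39647 and 40438 in siPVT1. The siPVT1 libraries lay close together and below every siControl library, at 72.0% of the siControl level (log2 fold change −0.47, standard error 0.054, edgeR adjusted p = 0.000147). FTH1 (ENSG00000167996, chr11:61959718-61967634, minus strand), the heavy chain with the ferroxidase activity, had 67276, 61385 and 66571 normalized counts in siControl and 64299, 59415 and 55573 in siPVT1. Its groups overlapped, and the log2 fold change of −0.12 (95% interval −0.29 to 0.04) did not pass (edgeR adjusted p = 0.176). It passed without siPVT1 replicate 1 (log2 fold change −0.19, edgeR adjusted p = 0.0237) and with scaling by the total count (log2 fold change −0.27, edgeR adjusted p = 0.00601).

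Both chains together took 0.409% ± 0.0068 of all counts in siControl and 0.305% ± 0.013 in siPVT1. These shares are of the total count without TMM scaling, so they are not on the scale of the fold changes above. Ferritin has many processed pseudogenes, and how a read that fits both is assigned is a model estimate of Salmon. The table held 24 FTH1 pseudogene rows with 1.48% to 1.73% of the summed counts of FTH1 and these rows in a library. For FTL, 16 such rows held 4.29% to 4.75%, nearly all of it in FTLP3, which carried 99.9% of the FTL pseudogene counts. Adding these rows to their parents left FTL lower and FTH1 not past the test. BEST1 has exons over those of FTH1 on the opposite strand, and the strand setting of the counting is not given in the sources used here. BEST1 had 142 ± 37.9 normalized counts in siControl and 139 ± 3.73 in siPVT1, which is small beside FTH1.

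TFRC (ENSG00000072274, chr3:196012511-196082153, minus strand), which imports iron bound to transferrin, was the member that varied most among the siPVT1 libraries. Its normalized counts were 29172, 27698 and 29409 in siControl and 12749, 17451 and 27337 in siPVT1. All 3 siPVT1 libraries were below the siControl libraries, but replicate 3 was only just below, while replicate 1 was the lowest. The log2 fold change of −0.58 (standard error 0.23) did not pass (edgeR adjusted p = 0.0599). The value depended on which siPVT1 library was left out. Without siPVT1 replicate 3 it was −0.95 (edgeR adjusted p = 3.94e-05), and without siPVT1 replicate 1 it was −0.37 (edgeR adjusted p = 0.0828), which does not pass. With all libraries it passed without a filter on low counts (edgeR adjusted p = 0.00659) and with scaling by the total count (edgeR adjusted p = 0.0259). SLC40A1 (ENSG00000138449, chr2:189560590-189583758, minus strand), which exports iron, was the lowest member by count, with 172, 146 and 165 normalized counts in siControl and 227, 225 and 210 in siPVT1. It was 1.37-fold higher in siPVT1 with no overlap between the groups (log2 fold change 0.45, standard error 0.10, edgeR adjusted p = 0.00632).

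The genes of the 2 IRPs differed in their response. ACO1 (ENSG00000122729, chr9:32384603-32454769, plus strand) encodes IRP1, which is a cytosolic aconitase when it holds an iron-sulfur cluster and binds RNA when it does not. It had 3418, 3265 and 3355 normalized counts in siControl and 6470, 5742 and 5198 in siPVT1. ACO1 was 1.73-fold higher and higher in 3 of 3 libraries (log2 fold change 0.79, standard error 0.083, edgeR adjusted p = 9.05e-05). IREB2 (ENSG00000136381, chr15:78437431-78501453, plus strand) encodes IRP2, which is degraded when iron is plentiful, and had 3279, 3229 and 3124 normalized counts in siControl and 2807, 3029 and 3133 in siPVT1. Its groups overlapped (log2 fold change −0.10, 95% interval −0.25 to 0.04, edgeR adjusted p = 0.194). IREB2 passed as lower without siPVT1 replicate 3 (log2 fold change −0.15, edgeR adjusted p = 0.0257) and with scaling by the total count (log2 fold change −0.25, edgeR adjusted p = 0.00866).

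Ratios of counts between members within a library do not depend on the scaling between libraries. The HMOX1 to HMOX2 ratio was 1.81 ± 0.087 in siControl and 0.50 ± 0.067 in siPVT1, so that HMOX1 made up 64.4% ± 1.09 of the heme oxygenase counts in siControl and 33.3% ± 2.89 in siPVT1. The ACO1 to IREB2 ratio rose from 1.04 ± 0.031 to 1.95 ± 0.33, the BLVRA to BLVRB ratio from 1.05 ± 0.0097 to 1.45 ± 0.14 and the FTH1 to FTL ratio from 1.17 ± 0.019 to 1.49 ± 0.11. The TFRC to SLC40A1 ratio, which sets iron entry beside exit, was 169, 189 and 178 in siControl and 56.1, 77.5 and 130 in siPVT1. In these 5 ratios the groups did not overlap (two-sided exact permutation test, p = 0.1 each, the smallest p that 3 libraries against 3 allow). The TFRC to FTH1 ratio overlapped, at 0.434, 0.451 and 0.442 in siControl and 0.198, 0.294 and 0.492 in siPVT1 (exact permutation test, p = 0.4). With 6 ratios and this design no adjusted p can pass a threshold of 0.05.

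**Figure D3:**
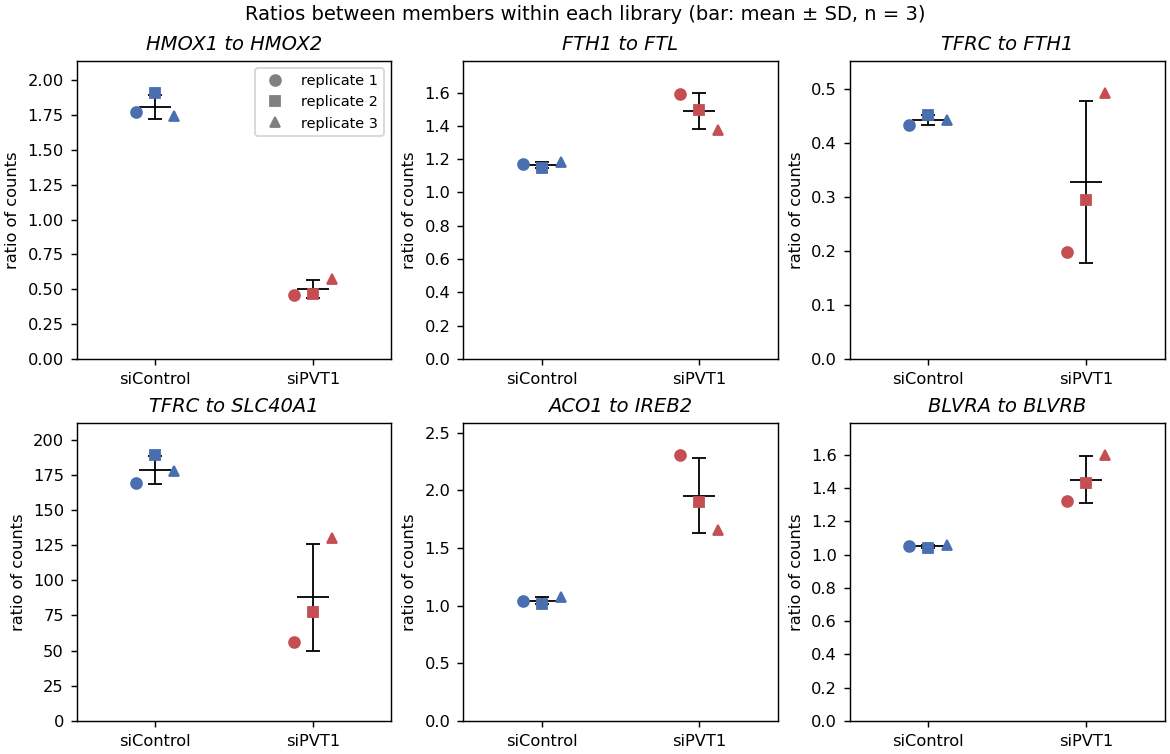
Ratio of the counts of 2 members within each library, with points for the 6 libraries, bars for the mean ± SD and axes from 0. The groups are apart in 5 ratios, and in the TFRC to FTH1 ratio siPVT1 replicate 3, at 0.492, lies above the siControl libraries.

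Levels were compared between genes as normalized counts per kilobase of the canonical transcript, which assumes that this isoform is the one expressed. In siControl the order was FTL (63992 ± 2274), FTH1 (54096 ± 2674), TFRC (5738 ± 185), HMOX1 (1457 ± 32.3), HMOX2 (749 ± 50.7), BLVRB (581 ± 52.8), IREB2 (508 ± 12.5), BLVRA (454 ± 43.2), ACO1 (449.5 ± 10.3) and SLC40A1 (48.5 ± 4.02). The libraries of IREB2 and BLVRA overlapped, as did those of BLVRA and ACO1. In siPVT1 the level of HMOX1 per kilobase (276 ± 50.8) had dropped from the fourth place to the ninth, below BLVRA (834 ± 32.8), ACO1 (780 ± 85.8), BLVRB (779 ± 96.2), HMOX2 (511 ± 24.8) and IREB2 (473 ± 26.3). The ferritin chains, FTH1 at 49678 ± 3635 and FTL at 46101 ± 506 per kilobase, then overlapped. SLC40A1 stayed the lowest member at 66.3 ± 2.73 per kilobase, and TFRC was at 3827 ± 1486.

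The siPVT1 libraries were less alike than the siControl libraries. siPVT1 replicate 3 was the siPVT1 library nearest to the siControl mean in 8 of the 10 members, the exceptions being BLVRA and FTH1, and it was the nearest in 50.2% of all tested genes. The normalized counts of PVT1 in the siPVT1 libraries are given above, and the part of the PVT1 level in the spread of TFRC was not tested.

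The wider pathway held 108 other genes, of which 98 were tested. Past both thresholds 7 were higher and 17 lower, and by the adjusted p-value alone 24 were higher and 46 lower. Their median log2 fold change was −0.23. Of all tested genes, 11.8% passed both thresholds as higher and 9.64% as lower. By the adjusted p-value alone 29.5% passed as higher and 28.4% as lower, and the list counts below are to be read beside these shares. The genes of heme synthesis were mostly lower by modest amounts. Of 8 tested, 5 passed the adjusted p-value as lower, among them ALAS1 (−0.31), which encodes the rate-limiting enzyme, and FECH (−0.79), which inserts the iron. ALAD (0.72) and PPOX (0.30) passed as higher, 0 of the 8 passed both thresholds and the median was −0.36. ALAS2, the erythroid first enzyme, had 0 counts in every library.

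Of 14 genes of heme transport and sensing, 3 rose and 7 fell by the adjusted p-value, with 1 past both thresholds in each direction and a median log2 fold change of −0.24. BACH1, the heme-binding repressor of HMOX1, had 4268, 4074 and 4108 normalized counts in siControl and 16881, 14332 and 11283 in siPVT1 (log2 fold change 1.77, standard error 0.13, edgeR adjusted p = 1.65e-05). All siPVT1 libraries were far above siControl, and replicate 3 was the lowest of them. The part of BACH1 in the fall of HMOX1 was not tested. ABCG2, an efflux transporter that also carries porphyrins, was lower (log2 fold change −1.08, standard error 0.24, edgeR adjusted p = 0.00502).

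Iron uptake genes went in both directions. Of 10 tested, 3 were higher and 2 lower past both thresholds, 5 and 2 by the adjusted p-value alone, and the median log2 fold change was 0.34. CYBRD1, a ferric reductase of the plasma membrane, rose from 1711 to 4379 normalized counts on average (log2 fold change 1.36, standard error 0.075, edgeR adjusted p = 4.06e-06). STEAP1 and STEAP2, of a family of metalloreductases, fell, to 41.2% and 35.4% of siControl. LCN2, which binds iron-carrying siderophores, was low throughout, with 1, 4 and 6 counts in siControl and 9, 11 and 10 in siPVT1 (log2 fold change 1.54, edgeR adjusted p = 0.0324). SLC22A17, the LCN2 receptor, had 2, 0 and 1 counts in siControl and 19, 13 and 9 in siPVT1. Against a floor of 3 counts in each siControl library it was at least 5.06-fold higher, and the list median was 0.34 also with this bound.

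**Figure D4:**
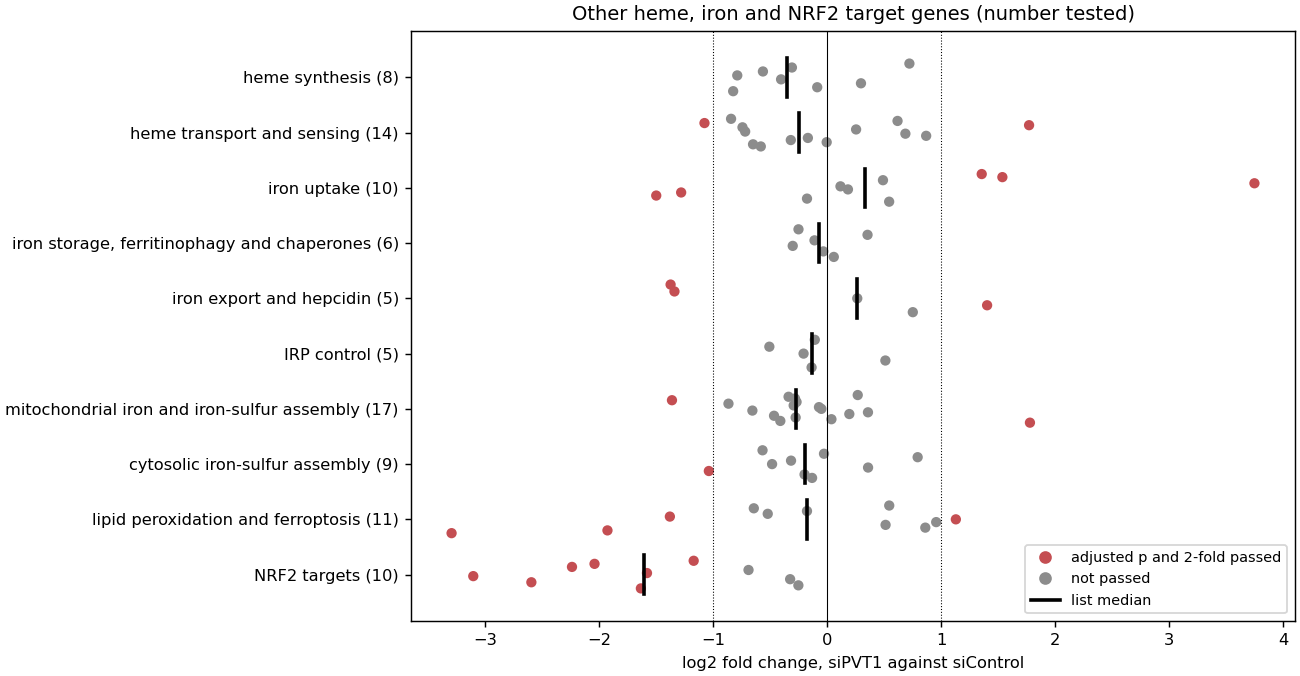
Log2 fold change of each tested gene of 10 lists around the members, with red points past both thresholds, black bars for list medians and dotted lines at a 2-fold change. The NRF2 targets have the lowest median, −1.61, and the other lists lie between −0.36 and 0.34. The rightmost point is SLC22A17, a fitted value for a gene near 0 counts in siControl.

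Of 6 tested genes of iron storage, ferritinophagy and iron chaperones, 0 passed both thresholds. NCOA4, the receptor that delivers ferritin to the lysosome, fell slightly (log2 fold change −0.30, standard error 0.063, edgeR adjusted p = 0.00366). PCBP1 and PCBP2, which hand iron to ferritin, had log2 fold changes of −0.03 and 0.06 and did not pass. Of 5 tested genes of iron export and hepcidin control, HFE, a partner of TFRC, was higher (1.40), while CP, a ferroxidase, and BMP6, a hepcidin inducer, were lower (−1.34 and −1.37). HAMP, the hepcidin gene itself, was not tested because of its low count.

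Of the 5 genes of IRP control, 1 was higher and 1 lower by the adjusted p-value. FBXL5, the ubiquitin ligase subunit that marks IRP2 for degradation, had a log2 fold change of −0.21 and did not pass (edgeR adjusted p = 0.0516). In mitochondrial iron and iron-sulfur assembly, 3 of 17 genes were higher and 7 lower by the adjusted p-value, with a median of −0.28. SLC25A37 (mitoferrin-1), which brings iron into mitochondria, rose to 3.43-fold its siControl level (log2 fold change 1.78, standard error 0.084, edgeR adjusted p = 1.99e-06), whereas FDX2, a ferredoxin of cluster assembly, fell (−1.36). In cytosolic assembly NDOR1, an electron donor, was the 1 gene of 9 past both thresholds (−1.04).

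The genes named in ferroptosis, a cell death driven by iron and oxidised lipids, divided. Of 11 tested, 1 was higher and 3 lower past both thresholds, and 5 and 5 by the adjusted p-value alone. SLC7A11 and SLC3A2, the light and heavy chains of the cystine importer, fell (log2 fold changes −3.29 and −1.93), as did DHODH (−1.38). GCH1 rose (1.13). All 10 NRF2 targets of the list were lower by the adjusted p-value, 7 of them past both thresholds, with a median of −1.61. OSGIN1 (−3.10), SRXN1 (−2.59) and GCLC (−2.04) had the smallest p-values, and HMOX1 at −2.39 lay within the range of this list. The ferritin genes are also known NRF2 targets. FTL at −0.47 lay between PRDX1 (−0.32) and ME1 (−0.69), while FTH1 at −0.12 was above TALDO1 (−0.25), the highest of the list. Other members rose, namely BLVRA (0.88), ACO1 (0.79), SLC40A1 (0.45) and BLVRB (0.42). These 4 were not sorted into NRF2 targets and other genes. The list of 10 is not a full set of NRF2 targets, so its uniform fall covers those 10 genes alone. Which members answer to NRF2 in these cells was not tested. The fall of NRF2 targets in these libraries was known when the lists were written and is not an independent result. The part of NRF2 or BACH1 in the changes of the members was not tested.

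Among mRNAs known to carry an iron-responsive element, 9 of 10 were tested, 4 of them members, and 2 rose and 2 fell by the adjusted p-value, with 0 past both thresholds. SLC11A2, an iron importer with a 3′ element in some isoforms, rose (0.49), as did SLC40A1, which has a 5′ element. FTL and EPAS1 (−0.35), both with a 5′ element, fell. TFRC and FTH1 had values below 0 that did not pass.

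For HMOX1, the genes of most similar pattern were sought by the root mean square difference of log2 CPM over the 6 libraries, each gene centred on its siControl mean. Of 13268 genes compared, INPP4B (0.103) and DHX37 (0.128) were the nearest, with log2 fold changes of −2.31 and −2.36. This is a description of 6 libraries in 2 groups.

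RefSeq promoters (GRCh38.p14, from 250 bases before to 50 after the start) were matched for 8 of the 10 members, all but HMOX1 and FTH1, and searched on both strands. The core of the antioxidant response element, TGACNNNGC, was in 0 of the 8 and in 13.6% of all 27305 promoters. The hypoxia element cores ACGTG and GCGTG were in 3 (HMOX2, FTL and TFRC) and 5 (BLVRA, BLVRB, FTL, ACO1 and IREB2) of the 8 members, against 21.6% and 36.3% of all promoters. These windows are short and leave out distal enhancers.

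Markers of the cell line and of other cells were examined beside these results. Of the epithelial and ovarian markers, KRT8, KRT18 and PAX8 were abundant while CDH1 and EPCAM were low, with means of 27.1 and 96.7 normalized counts in siControl. By the adjusted p-value 5 of these 10 markers rose and 2 fell, and past both thresholds KRT19 (log2 fold change 2.30) and MSLN (2.94) rose and WT1 (−1.01) fell. Their summed level was 20637–23030 normalized counts in siControl and 28394–31752 in siPVT1. The 6 erythroid markers, globins among them, were at 3 counts or fewer in every library. Of the 5 endothelial markers 4 rose, with PECAM1 (log2 fold change 2.99), CDH5 (2.22) and VWF (1.66) having the smallest p-values, and their summed level went from 2090–2129 in siControl to 8689–10969 normalized counts in siPVT1, most of it CDH5. Of the 6 fibroblast markers COL1A1 and PDGFRB rose, while LUM had a log2 fold change of −1.15 and did not pass (edgeR adjusted p = 0.132). COL1A2 was not tested because of its low count, and COL3A1 and DCN were at 3 counts or fewer in every library. The fibroblast sum went from 212–220 in siControl to 799–838 in siPVT1, most of it COL1A1 and PDGFRB. Of the 5 leukocyte markers, PTPRC and CD3E were at 3 counts or fewer in every library. CD14 and CD79A fell at low counts, CD14 from 10, 6 and 8 to 3, 2 and 3 and CD79A from 16, 18 and 20 to 7, 4 and 4. CD68 did not pass (log2 fold change 0.30, edgeR adjusted p = 0.111). It made up most of the leukocyte sum, which was 574–631 in siControl and 587–902 in siPVT1. The part of these shifts in the members' changes was not tested.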

How the data were processed

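RNA from 3 siControl and 3 siPVT1 samples of SK-OV3 cells was sequenced as 75-bp single-end reads. The authors aligned the reads with STAR 2.7.3a to the GENCODE transcriptome of GRCh38.p13 and counted them with Salmon 0.14.1, versions per the submitters' processing notes, and deposited estimated counts, not normalized, rounded to integers and listed by gene symbol. All 6 columns were matched to a sample by label. The chi-square per degree of freedom was 1.71 to 5.58 between siControl libraries and 8.37 to 44.2 between siPVT1 libraries. Each library was treated as 1 sample, and these values do not show whether the replicates were separate cultures.

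edgeR 4.0.16 (R 4.3.3) was run on the counts with TMM and its quasi-likelihood test, with the siRNA as the only term, on the 19008 genes that reached 5 normalized counts in 3 or more libraries, and p-values were adjusted by Benjamini-Hochberg over these genes. The standard error is the absolute log2 fold change over the square root of F. The test was also run on simulated counts with the same degree of spread for every gene and library. That setting leaves out the larger spread between the siPVT1 libraries, so it does not measure error rates in these data. Alternatives were DESeq2 1.42.0, other scalings and filters, a test against a 2-fold change, each library left out, the replicate number as a block and pseudogene counts added to the ferritins. Coordinates, transcript lengths and UTRs came from GENCODE v44 on GRCh38.

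The members and lists were chosen with earlier results of these data known. All 10 members are named. Of each other list, genes past both thresholds are named, at most the 3 with the smallest p in each direction, and further genes were named after their values were seen. For the pattern search, genes with a mean under 50 normalized counts were left out and the prior count of the log2 CPM was 2. One result of this search is not reported here.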

Additional observations from a re-analysis of the deposited data

How the results depend on the processing

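HMOX1 kept its direction and both thresholds in all 14 alternative fits, with log2 fold changes from −2.58 to −2.33 and adjusted p-values up to 9.22e-05. No member reversed its direction in any of these fits. Of the 108 other pathway genes, 18 to 26 passed both thresholds across the alternatives, against 24. Differentially expressed genes numbered 4081 and fell to 1976 when the null hypothesis was a change of up to 2-fold, a stricter test, and HMOX1 was then the 1 member called. With scaling by the total count 43.8% of the called genes were higher, against 55.1%. Members past the adjusted p-value alone numbered 7, with 7 to 9 when 1 library was left out.

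The replicate numbers did not pair the samples. The correlations of same-numbered deviations were −0.041, 0.038 and 0.0037, and not every library correlated best with its own number. With the replicate block the members past both thresholds were still 1, 23 other pathway genes passed, and TFRC passed the adjusted p-value (log2 fold change −0.65, edgeR adjusted p = 0.0206). Low counts limit the precision for LCN2 and SLC22A17, which had at most 19 counts in a library.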
